A study of Mus musculus with 3 samples.

Results

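NK1.1+ CD8+ T cells in which CD4-Cre deletes Tgfbr2, the gene of the TGF-β type II receptor, were set against control CD8+ T cells, with 1 Affymetrix mouse expression array for each. The NK1.1+ KO cells were sorted from Tgfbr2 fl/fl mice carrying CD4-Cre, aged 15 to 17 days. The control cells came from heterozygous Tgfbr2 fl/wt littermates that carried CD4-Cre as well, so both groups share the Cre transgene, which is driven by the CD4 promoter and acts in T cells from the thymus onward. Control cells are NK1.1− by the array's title, whereas one passage of the design text has unfractionated CD8+ cells, and which gate applied could not be settled. On either reading the groups differ in the NK1.1 gate as well as in genotype, and the parts of gate and genotype in any difference cannot be told apart. The number of mice behind an array, and the age of the control mice, are not stated in the sources used here. A further array, of NK1.1− CD8+ KO cells, is quoted beside the comparison. The comparison was defined by the sample titles and not by measured values. It covers 2 of the 3 arrays of the series and 10328 of the 18193 genes on the array, those measured on the NK1.1+ KO array or the control array. Each value is a GCRMA intensity, and a gene takes the value of the probe set that was brightest on average across the 3 arrays. Values of 10.3 or more were taken as measured, and those below were raised to that level, so a difference with 1 side under it is a bound. A gene was called higher or lower at a difference of 2-fold, 1 on the log2 scale. Each group has 1 array, which leaves no test and no replicate check for any difference.

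TGF-β binds a complex of type I and type II receptors, which phosphorylates SMAD2 and SMAD3, and in T cells this signal restrains effector differentiation and supports regulatory and tissue-resident programmes. T cells without the type II receptor acquire cytotoxic and NK-like properties early in life, and the animals develop fatal inflammation. NK1.1 is a C-type lectin of NK cells that a minority of T cells also carry. In a bulk sample, fewer cells of a type and less RNA per cell cannot be told apart.

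The sorted markers were looked at first. NK1.1 is encoded by Klrb1c, whose only probe set here is shared with its neighbour Klrb1b. That probe set read 1618 for NK1.1+ KO cells, 52.7 for NK1.1− KO cells and 7.09 for control cells, so the first exceeded the last at least 156.6-fold. All values below keep this order, NK1.1+ KO, NK1.1− KO and control, and signed differences are log2, NK1.1+ KO minus control. The T cell gene Cd3e read 776, 750.3 and 701 and differed by 0.15. The CD8 chains were present but lower, Cd8b1 with 223, 389 and 468 and Cd8a with 524, 1027 and 1786, and the 5 measured probe sets (−3.59 to 0.03) of Cd8a disagreed on the size. The deleted gene Tgfbr2 read 1808, 1271 and 2634, a difference of −0.54 that was not called. The position of its probe sets relative to the deleted part was not established, so this level does not check the genotype. Among the defining genes of NK cells, Ncr1 and Itga2 were under the level on all arrays. The NK1.1+ KO array also stood apart in its controls. The ratio of the 3′ to the 5′ control probe set of Actb was 81.8, 12.3 and 6.02, and for Gapdh it was 10.8, 26.7 and 17.8. Hybridisation controls had geometric means of 3707, 1483 and 1479. For poly-A controls these were 574.2, 89.9 and 207.8, so the NK1.1− KO and control arrays also differed from each other. How much of any difference below goes with these values was not tested.

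Across the genome, more genes were lower than higher on the NK1.1+ KO array, and the largest differences were upward. Of the 10328 measured genes, 1011 (9.79%) were called higher and 2377 (23.0%) lower, and the median difference was −0.19. The shares of each gene group on the NK1.1+ KO array should be read against these. Shares over all genes were not counted for the NK1.1− KO array, so list counts quoted for it have no such baseline. The balance of higher and lower genes on the NK1.1+ KO array turned with size. At 8-fold or more, 168 genes were higher and 123 lower, at 16-fold or more 73 and 24, and at 64-fold or more 13 and 3. The split depended on the scaling of the arrays. The higher genes were 29.8% of all calls with the deposited scaling, 40.7% after quantile normalization and 53.9% after centring. Centring gave the arrays equal medians over the genes measured on every array of the series. Quantile normalization and centring moved the median of all measured genes by 0.13 and 0.37. Where centring moved a list's count by over 1.5 times, turned the balance of higher and lower members or turned the sign of its median, the higher and lower counts after centring follow the deposited ones. Quantile normalization turned the balance of no list whose balance centring kept. Lower calls were most frequent among genes of low to middling level. In the second of 5 equal classes of mean level, between 19.3 and 57.8, 35.5% were lower and 15.9% higher, while in the brightest class, above 525.3, 12.9% were lower and 6.58% higher.

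**Figure D1:**
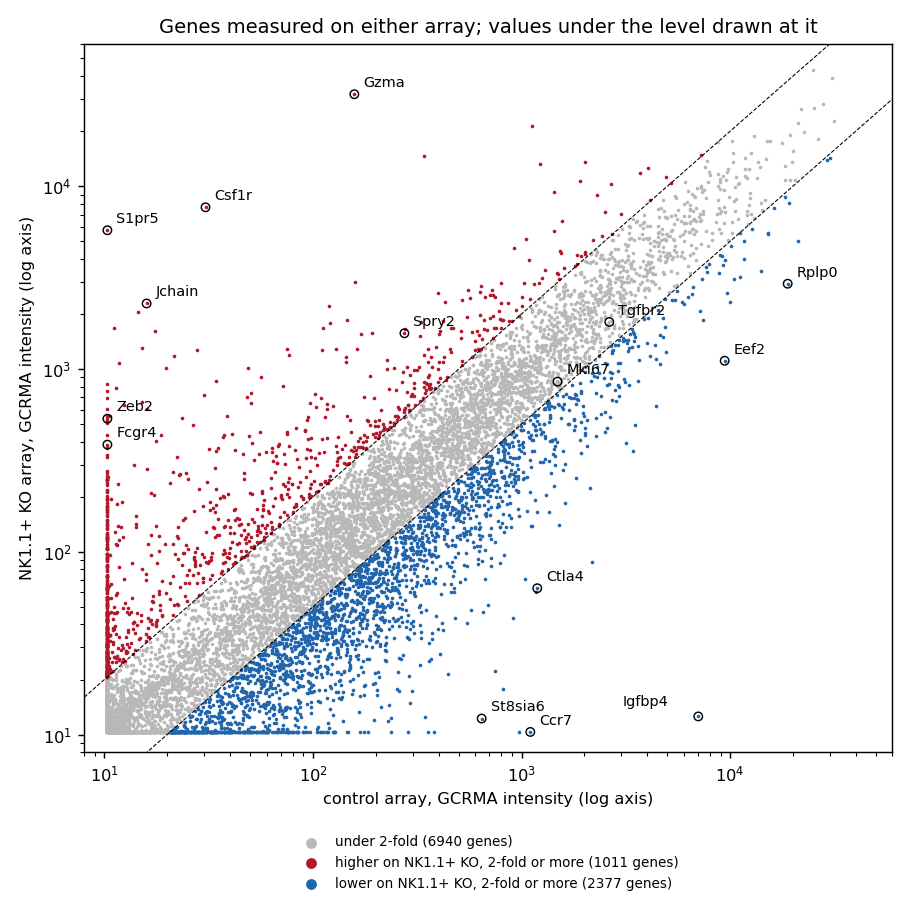
Intensity of each of the 10328 measured genes on the control array (x) and the NK1.1+ KO array (y), both on log axes, with values under the level of 10.3 drawn at it and dashed lines at 2-fold. Red points are the 1011 higher genes, blue points the 2377 lower genes, and circles mark genes named in the text, among them Gzma at 31860 against 157.8 and Igfbp4 at 12.6 against 7032.

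Different probe sets of one gene often gave different answers. Of 4522 genes with at least 2 measured probe sets, 90 (1.99%) were higher by 2-fold on every one and 255 (5.64%) lower on every one. That was 20.9% of the higher calls and 27.4% of the lower calls among such genes, and in 132 genes 1 probe set was called higher and another lower. The genes called one way by every probe set include several of the largest differences. Csf1r, the receptor of the macrophage growth factor CSF-1, differed by 1.79 to 7.97 over its 3 probe sets, and Zeb2, a transcription factor of terminal effector cells, by 1.95 to 5.92 over 5. The insulin-like growth factor binding protein Igfbp4 spanned −9.13 to −4.19 over 5 measured probe sets, the sialyltransferase St8sia6 −6.51 to −3.15 over 3, and the nucleolar methyltransferase Fbl −3.77 to −2.69 over 2. Other genes had 1 probe set near no difference or in the other direction. Tgm2, a transglutaminase, ran over 0.02 to 5.83, Rhoh, a haematopoietic GTPase, over −4.80 to 0.26, and the ubiquitin ligase Rnf213 over −1.66 to 3.31. In what follows the range over probe sets is given after a gene's difference where they do not all fall on 1 side of the threshold.

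**Figure D2:**
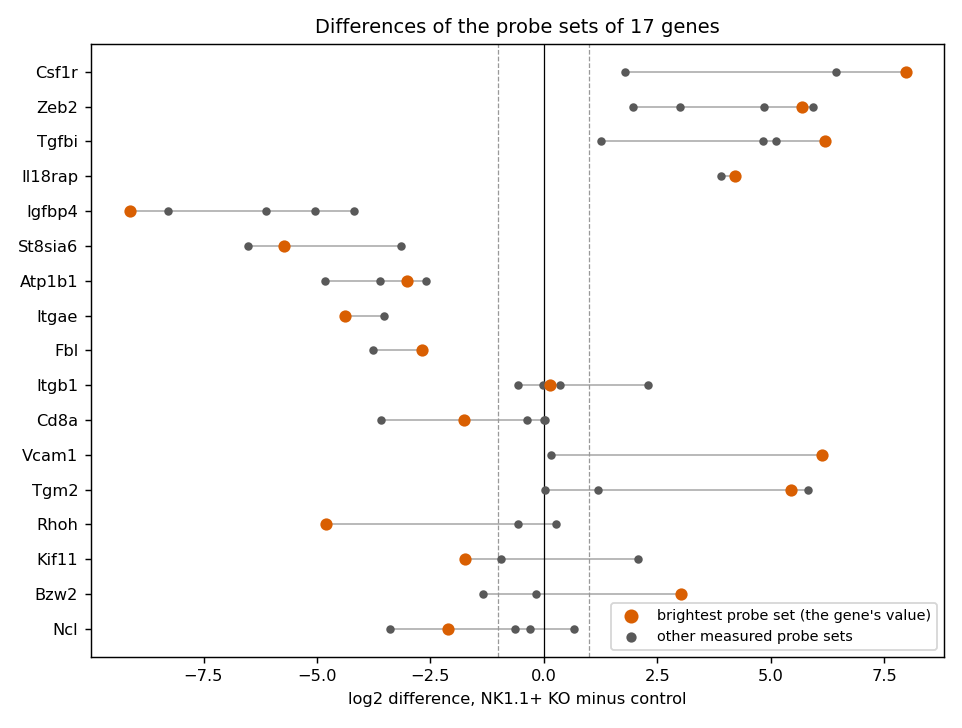
log2 difference, NK1.1+ KO minus control (x), for every measured probe set of 17 genes (rows), with the brightest probe set in orange, the others in grey and dashed lines at 2-fold. All points of Csf1r, Zeb2, Igfbp4, St8sia6 and Fbl lie past a dashed line on 1 side, while those of Kif11, Bzw2 and Ncl lie on both sides of zero.

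Genes of cytotoxic granules and death ligands were mostly higher. In this list, 10 of 19 measured members were called higher and 1 lower (after centring 12 higher and 0 lower of 19), with a median of 1.65. 9 of the 18 members measured on the control array were higher. Gzmk, a granule protease, read 269.5, 451 and 5.96, a difference of at least 4.71. The control array alone was under the level. Fasl, which triggers apoptosis through Fas, read 1285, 815 and 75.2 (4.09), and the granule membrane protein Nkg7 read 5145, 4227 and 1046 (2.30). Serpinb9, which protects the killer cell from its own granzyme B, read 918, 1448 and 188 (2.29), and Stx11, needed for granule release, 997, 1134 and 227 (2.14), and both were called on each of their 2 probe sets. For Gzmb (1788, 6098 and 120.2) the highest array was that of the NK1.1− KO cells. The one lower gene was Unc13d (65.1, 155 and 169.6, −1.38), which primes granules for fusion, and Ctsw, a cathepsin of cytotoxic cells, was not called (407, 747 and 726, −0.83).

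Promoter letters of this group are shown because T-box factors, among them the Tbx21 product T-bet, drive cytotoxic genes. The half-site GGTGTGA, searched on both strands from 250 bases before to 50 after the start in RefSeq promoters of GRCm38.p6, was in 4 of the 16 promoters available for measured members and in 3.26% of the 8444 promoters of all measured genes. Of the 9 higher members with a promoter, Gzmk and Nkg7 held it before the start site. Both stretches run 5′ to 3′ on the gene's strand, with the motif in capitals. The Gzmk stretch is chr13:113181014-113181060 (minus strand) and the Nkg7 stretch is chr7:43437105-43437137 (plus strand).
Gzmk: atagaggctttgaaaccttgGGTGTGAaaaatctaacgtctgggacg
Nkg7: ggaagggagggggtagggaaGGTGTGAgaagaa

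Tbx21 itself was higher on both KO arrays (1568, 2170 and 192, 3.03). Among effector transcription factors, 12 of 21 measured members were called higher and 3 lower (after centring 13 higher and 1 lower of 21), with a median of 1.46, and 10 of the 19 members measured on the control array were higher. Zeb2 separated the KO subsets most, at 535, 71.3 and 9.42 (at least 5.69), while Bhlhe40, a cytokine-programme regulator, was alike on them (718, 778 and 29.9, 4.59), as were Prdm1 (269.5, 273 and 46.9), which encodes Blimp-1, and Runx3 (1286, 963 and 356), a factor of the CD8 lineage. Id2, which blocks E proteins, read 13530, 8641 and 2010 (2.75), against 16.6, 43.4 and 153 for its counterpart Id3 (−3.21). Eomes, the other T-box factor of killer cells, was not called (734, 2085 and 593, 0.31, probe sets −1.01 to 0.31) and was highest on the NK1.1− KO array. Irf4 (40.1, 205 and 97.5, −1.28) and Batf (22.7, 123 and 60.9, −1.42), which cooperate downstream of antigen receptor signals, were called lower on the NK1.1+ KO array and were highest on the NK1.1− KO array. Zbtb16, the factor PLZF of innate-like T cells, was under the level on both KO arrays (9.902, 5.74 and 18.5). Of 8 measured innate-like and γδ T cell genes, 1 was called, Il18r1 (1928, 1391 and 550.2, 1.81), a chain of the IL-18 receptor. The median of that list went from −0.17 to 0.02 with centring. Its partner chain Il18rap differed more (2209, 1176 and 119.5, 4.21), on both of its probe sets.

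Secreted mediators showed a narrow set of large differences. For chemokines, 7 of 8 measured members were called higher and 0 lower, with a median of 3.74, and 4 of the 4 members measured on the control array were higher. Some chemokines were high on both KO arrays. Ccl5 read 21300, 12190 and 1119 (4.25), Ccl4 166, 89.97 and 8.62 (at least 4) and Ccl3 111, 185 and 4.51 (at least 3.42). In contrast Ccl6 (556, 18.2 and 10.6, 5.71), Ccl9 (158, 19.7 and 14.2, 3.47) and Cxcl9 (191, 10.7 and 4.76, at least 4.21, probe sets 0.17 to 4.21), chemokines typical of myeloid cells, were high in NK1.1+ KO cells alone. Among cytokines, 5 of 13 measured members were called higher and 2 lower (after centring 6 higher and 1 lower of 13, median from −0.04 to 0.08), with a median of −0.04. Ifng, the macrophage-activating interferon, read 2997, 3874 and 159.5 (4.23), and Ltb, a TNF family member needed for lymphoid tissue, 341, 529 and 1407 (−2.04). For chemokine receptors, 3 of 10 measured members were called higher and 4 lower (after centring 4 higher and 3 lower of 11, median from −0.20 to 0.10). Cxcr3, which guides T cells to inflamed sites, was not called (1020, 4457 and 1512, −0.57) and was highest on the NK1.1− KO array, and the gut-homing receptor Ccr9 was lower (14.9, 36.9 and 293, −4.30) with probe sets spanning −4.30 to 0.67.

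Receptors of NK cells were higher, most of them lectins of the NK gene complex. Of 17 NK lectin genes matched on the array, 10 were measured, of which 8 were called higher and 0 lower, with a median of 2.18, and 5 of the 7 members measured on the control array were higher. Klre1, a partner of inhibitory and activating lectins, read 1077, 80.2 and 11.7 (6.52). Klrc1, the inhibitory NKG2A chain, read 1274, 224 and 27.9 (5.51), and its partner Klrd1, CD94, 11870, 5403 and 3687 (1.69). Klrg1, a receptor of terminal effector cells, was high on both KO arrays (2615, 2326 and 397, 2.72). The Ly49 receptor genes had low values. Klra2 (28, 7.85 and 7.75) and Klra8 (25.1, 7.71 and 7.61) were called higher, both as bounds not far above the level, and Klra7 (45.5, 8.59 and 51.3) was not called. In the list of immunoglobulin-type, SLAM and other NK receptors, 5 of 14 measured members were called higher and 2 lower (after centring 6 higher and 0 lower of 14). Cd244a, the 2B4 receptor, read 705, 106 and 48.1 (3.87), and Slamf7 251, 216 and 25.04 (3.32), while Cd96 (655, 685 and 1331, −1.02) and Slamf6 (665, 1721 and 1342, −1.01) were lower.

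The adaptors and kinases beneath these receptors went both ways. In that list, 6 of 15 measured members were called higher and 4 lower. Tyrobp, the adaptor DAP12, read 1183, 52.6 and 21.6 (5.78), and Fcer1g, the Fc receptor γ chain, 261, 5.76 and 6.17 (at least 4.66). Of the carriers of T cell receptor signals in this list, 3 were lower. Cd247, the ζ chain, read 239, 556 and 840.2 (−1.81), the kinase Zap70 210.5, 739 and 683 (−1.70) and the exchange factor Vav1 113, 319.8 and 588 (−2.38). Single probe sets of these 3 fell short of the threshold, with ranges of −1.81 to −0.18, −1.70 to −0.29 and −2.38 to 0.78. Fyn, a Src family kinase of the T cell receptor, was higher (2966, 2108 and 1029, 1.53), with another probe set in the other direction (−0.77 to 1.53). Syk, the kinase that binds DAP12 and the γ chain, was not called (70.99, 20.3 and 37.2, 0.93, probe sets 0.30 to 1.75).

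Fc receptors, paired immunoglobulin-like receptors and CD300 receptors were higher in most measured members. Of 24 genes matched on the array, 19 were measured, of which 14 were called higher and 0 lower, with a median of 3.51, and 4 of the 7 members measured on the control array were higher. On the NK1.1− KO array, 1 of 7 measured members were higher than control and 0 lower. These receptors deliver activating or inhibitory signals on myeloid and NK cells. Fcgr4, an activating receptor for IgG2, read 386, 5.63 and 5.59 (at least 5.22). Treml4, a receptor of patrolling monocytes and dendritic cells, read 516, 5.06 and 5.33 (at least 5.64), and Sirpb1a 332, 6.44 and 5.81 (at least 5.01). Among inhibitory members, Cd300a read 118, 6.21 and 6.03 (at least 3.51) and Pilra 54.5, 9.73 and 8.66 (at least 2.40). The low-affinity receptor Fcgr3, CD16, which NK cells use to kill antibody-coated targets, differed less, at 151, 57.1 and 44.4 (1.76).

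PU.1, encoded by Spi1, is the ETS factor that drives many of these genes in myeloid cells, and its probe set stood just above the level on the NK1.1+ KO array (16.7, 9.59 and 8.74, 0.69, not called). The PU.1-type ETS sequence GAGGAAGT, searched on both strands as above, was in 4 of 18 available promoters of measured members of the Fc, paired and CD300 group (22.2%) and in 3.34% of all 8444. Of the 13 higher members with a promoter, Fcgr4 was the 1 found to hold it before the start site. It lies there as the reverse complement, in capitals, at chr1:171018882-171018925 (plus strand).
Fcgr4: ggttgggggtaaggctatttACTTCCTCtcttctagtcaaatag

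Pattern-recognition receptors gave a similar picture. Among them, 12 of 18 measured members were called higher and 1 lower, with a median of 1.50. Only 1 of the 7 members measured on the control array was higher. The other 11 higher members were under the level on that array and could differ in no other direction. The same limit holds for the bounds in every list. The C-type lectins led. Clec4a3 read 505, 6.898 and 6.56 (at least 5.61), Clec4n, Dectin-2, 252, 8.44 and 7.72 (at least 4.61) and Clec7a, the β-glucan receptor Dectin-1, 175, 7.39 and 5.65 (at least 4.08). Ly86, which pairs with the Toll-like receptor relative Cd180, read 496, 46.9 and 26.6 (4.22). Among the Toll-like receptors themselves, Tlr4 had low values but was called higher, as a bound (27.7, 22.4 and 6.74). Tlr7 was low and not called (14.7, 10.1 and 13.2), Tlr8 and Tlr9 were under the level, and Tlr1 was lower (137, 304 and 787, −2.52).

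Markers of other cell types were higher on the same array. For nonclassical monocytes, 13 of 22 measured members were called higher and 1 lower (after centring 16 higher and 0 lower of 22), and the summed intensity of the list was 26050, 10950 and 6556. For classical monocytes, 13 of 17 measured members were called higher and 0 lower, with sums of 24960, 7625 and 4595. Lyz1 alone is the larger part of that sum on the NK1.1+ KO array. For macrophages 8 of 12 measured members were called higher and 0 lower, with sums of 2728, 1041 and 945.9. Csf1r, which defines the lineage, read 7666, 54.5 and 30.5 (7.97), and Adgre4, a receptor of patrolling monocytes, 1685, 12.9 and 11.1 (7.25). Lysozyme genes Lyz2 (541, 23.4 and 23.7, 4.52) and Lyz1 (14620, 647 and 339, 5.43), Mpeg1 (856, 57.03 and 34.2, 4.65), which encodes a pore-forming protein of macrophages, and Klf4 (1301, 23.3 and 15.2, 6.42), a monocyte transcription factor, were higher as well. On the NK1.1− KO array none of these 6 genes was called against control, but other members of these lists were. There, 4 of 16 measured nonclassical monocyte markers were higher than control and 4 lower. For classical monocyte markers it was 4 of 13 higher and 0 lower, and for macrophage markers 1 of 7 higher and 1 lower. Other defining genes were under the level everywhere, among them Vcan, Cd14 and Itgam. Among myeloid transcription factors, 4 of 14 measured members were called higher and 1 lower, with Cebpb, of inflammatory myeloid gene expression, among the higher (66.2, 11.4 and 10.7, 2.63). Of neutrophil markers, 2 of 8 measured members were called higher and 0 lower, with a median of 0.14. The 2 called were S100a8 (236, 121 and 97.9) and S100a9 (67.6, 34.9 and 27.8). For dendritic cell markers, 6 of 12 measured members were called higher and 3 lower, with H2-Aa at 1517, 289 and 325 (2.22, probe sets 0.47 to 2.22), a class II chain, and Flt3 and Xcr1 under the level. What part RNA of such cells has in these differences was not tested.

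Immunoglobulin transcripts also set the NK1.1+ KO array apart. Jchain, which joins IgM and IgA, read 2282, 15.97 and 15.9 (7.16), the κ light chain probe set Igk 1609, 21.6 and 17.4 (6.53), and the μ heavy chain Ighm 10740, 772 and 1904 (2.50, with 0.03 to 2.50 over its probe sets). For plasma cell markers, 5 of 10 measured members were called higher and 3 lower (after centring 5 higher and 1 lower of 10), with sums of 15830, 2791 and 3826, and for B cell markers 3 of 14 measured members were called higher and 4 lower (after centring 3 higher and 0 lower of 14), with sums of 12170, 1716 and 2991. Ighm stands in both lists, and its 10740 on the NK1.1+ KO array is the larger part of both sums there. Ly86, named above with the pattern receptors, is another higher member of the B cell list. Other B cell genes lay on both sides. Cd22, an inhibitory receptor of B cells, read 182, 359 and 82.7 (1.14) and was called higher. Ms4a1, CD20, read 108, 76.7 and 212 (−0.96, probe sets −1.50 to −0.96), the antigen receptor chain Cd79b 24.5, 26.02 and 53.7 (−1.13) and the coactivator Pou2af1 68.99, 58.9 and 161 (−1.22), and Cd79a and Pax5 were under the level. Sdc1, the plasma cell marker CD138, was at the level (10.1, 7.73 and 10.5). Among stromal, endothelial and hepatocyte markers, 3 of 7 measured members were called higher and 2 lower (after centring 3 higher and 1 lower of 7), and the higher ones were Dcn (96.99, 7.44 and 7.48), Col1a2 (90.3, 4.53 and 8.53) and Hp (68.8, 7.42 and 6.93), while Col1a1, Col3a1 and Cdh5 were under the level. For erythroid, platelet and mast cell markers, 0 of 5 measured members were called higher and 1 lower (after centring 0 higher and 1 lower of 7, median from −0.53 to 0.02). The part of these cells in the results was not tested either.

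**Figure D3:**
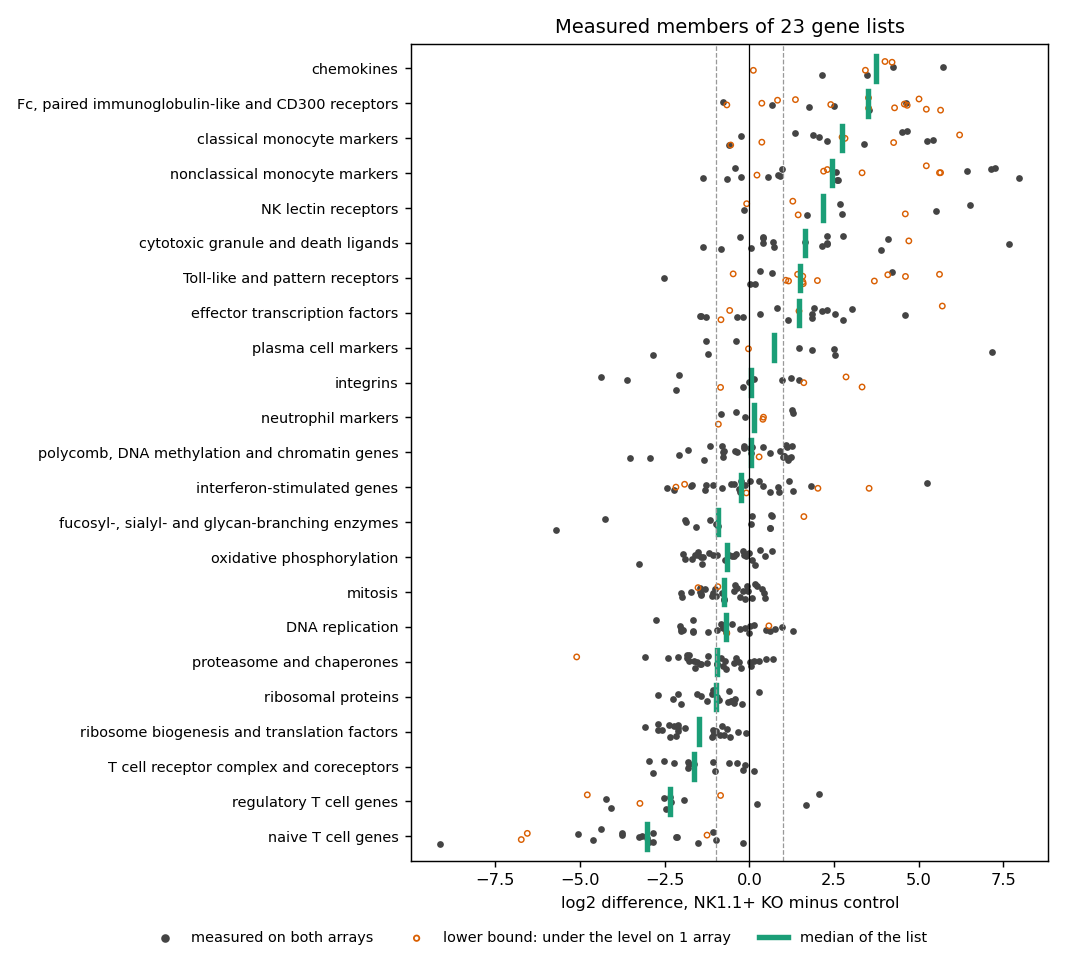
log2 difference, NK1.1+ KO minus control (x), for the measured members of 23 gene lists (rows), with bounds as open orange circles, the list median as a green bar and dashed lines at 2-fold. Medians run from 3.74 for chemokines to −3.01 for naive T cell genes, and many points of the Fc receptor and pattern receptor rows are bounds.

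Genes of migration and adhesion went both ways. Among integrins, 5 of 14 measured members were called higher and 4 lower. The αE chain Itgae, which with β7 binds E-cadherin on epithelium and is induced by TGF-β, read 21.4, 44.6 and 444 (−4.38), and Itgb7 read 538, 1475 and 2270 (−2.08). Itgb3 (16.4, 112 and 202, −3.62) and Itga6 (214, 618 and 963, −2.17), receptors for vitronectin and laminin, were lower too. Other chains were higher. Itga4, the α4 chain that binds VCAM-1, read 7019, 8022 and 2993 (1.23, probe sets 0.00 to 2.29), Itgax 104, 187 and 9.88 (at least 3.33) and Itgav 1160, 608 and 425 (1.45, probe sets 0.999 to 1.45), and Itgal, LFA-1's α chain, fell just short of a call (2830, 2098 and 1454, 0.96). Itgb1, the α4 partner, differed by 0.13, probe sets −0.57 to 2.30 (654, 2606 and 596) and was highest on the NK1.1− KO array. In the list of egress and adhesion genes, 6 of 16 measured members were called higher and 6 lower (after centring 7 higher and 5 lower of 17, median from −0.41 to 0.15). The sphingosine phosphate receptors S1pr5 (5741, 1148 and 10.1, at least 9.12) and S1pr1 (130.5, 209.7 and 539, −2.05), which guide exit from tissue and lymph node, went opposite ways. The hyaluronan receptor Cd44, a mark of antigen experience, read 2444, 2056 and 568 (2.10) on the brighter of 2 called probe sets.

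Enzymes that build sialylated and branched glycans leaned lower. Of them, 1 of 15 measured members were called higher and 6 lower (after centring 5 higher and 5 lower of 15), with a median of −0.93. The sialyltransferases St8sia6 (12.2, 11.4 and 644, −5.72) and St8sia1 (12.4, 27.7 and 237, −4.26) were the lowest, and both were lower on every measured probe set. St6gal1, which caps N-glycans with sialic acid, read 2614, 5816 and 9707 (−1.89, probe sets −1.89 to −0.31), and the core fucosyltransferase Fut8 119, 411 and 357 (−1.58, with −1.58 to 0.44 over its probe sets). Gcnt1, which makes the core 2 O-glycans of selectin ligands in activated CD8 cells, was the one gene called higher (31.5, 17.7 and 9.73, at least 1.61).

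Of the 60 lists, the genes of naive T cells had the largest share of lower members. There, 0 of 21 measured members were called higher and 19 lower, with a median of −3.01, and 16 of the 18 members measured on the NK1.1+ KO array were lower. On the NK1.1− KO array, 0 of 21 measured members were higher than control and 17 lower. Tdrp (8.68, 63.4 and 973, −6.56 or lower) and Ccr7 (6.01, 67.1 and 1101, −6.74 or lower), the lymph node homing receptor, were under the level on the NK1.1+ KO array. Il6st, the shared receptor chain gp130 of the IL-6 family, read 22.3, 106 and 745 (−5.06), with −5.06 to −0.02 over 4 probe sets, and its partner Il6ra 43.4, 24.6 and 194 (−2.16). Dapl1 (43.6, 107 and 911, −4.39), Nsg2 (87.9, 770.2 and 2175, −4.63) and Actn1 (223, 489.9 and 2139, −3.26), an actin crosslinker, followed, each with the NK1.1− KO array between the other 2. The survival receptor Il7r was nearer to control (3630, 5042 and 7648, −1.08), and Ldhb was not called (317, 442 and 363, −0.20, probe sets −1.51 to −0.20). Transcription factors of the naive and stem-like state were more mixed, with 1 of 20 measured members called higher and 8 lower (after centring 2 higher and 5 lower of 20) and a median of −0.69. Bach2 (117, 150.2 and 504, −2.11, probe sets −2.78 to −0.80), Sox4 (107, 102 and 612, −2.51) and Foxo1 (1081, 1405 and 2914, −1.43) were lower. Bcl6, a repressor that directs follicular helper cells, was the one called higher (691, 241 and 196, 1.82), while Klf2 (1792, 1111 and 1955, −0.13) and Foxp1 (1099, 732 and 1103, −0.01, probe sets −2.44 to −0.01) were not called. Among thymocyte genes, 0 of 12 measured members were called higher and 5 lower (after centring 0 higher and 3 lower of 12), and the early genes Rag1 and Rag2 were under the level.

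Genes of the T cell receptor were mostly lower on the NK1.1+ KO array. For the receptor complex and coreceptors, 0 of 15 measured members were called higher and 10 lower, with a median of −1.62. On the NK1.1− KO array, 0 of 15 measured members were higher than control and 2 lower. Cd3g read 1185, 2805 and 4146 (−1.81) and Cd3d 738, 1616 and 2275 (−1.62), in contrast to Cd3e. The modulators Cd5 (254, 785 and 1815, −2.84) and Cd6 (136, 359 and 786, −2.52), whose level follows receptor signal strength, and the adhesion receptor Cd2 (409, 1342 and 1897, −2.21) were lower too. In the signalling list, 0 of 24 measured members were called higher and 11 lower (after centring 1 higher and 9 lower of 24). The adaptor Lat read 390.1, 898 and 1010 (−1.37), the Ras activator Rasgrp1 366, 609 and 1436 (−1.97, probe sets −1.97 to −0.97), and the inhibitory phosphatase Ptpn6, SHP-1, 158, 291 and 675 (−2.10, with −2.10 to 0.32 over its probe sets). Activators and a brake were both lower. Plcg1 (788, 999.7 and 1105, −0.49) and Bcl10 (982, 908 and 980.2, 0.00) were not called.

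Cytokine receptor genes were described in 2 lists. Among receptors and signal carriers of the common γ chain family, 1 of 13 measured members were called higher and 7 lower, with a median of −1.08. Il2ra (16.8, 52.1 and 63.8, −1.93), Il2rb (51.2, 269.8 and 146, −1.51, probe sets −1.51 to −0.98), Il4ra (22.1, 72.04 and 255, −3.53) and Il21r (21.6, 54.4 and 73.1, −1.76), which bind IL-2, IL-15, IL-4 and IL-21, were lower, as was Jak3 (9.23, 58.1 and 46.6, −2.17 or lower), the kinase on the common chain. Socs2, a feedback inhibitor, was the one gene called higher (137, 141 and 37.4, 1.88), on all 3 of its probe sets. In the IL-12, IL-18, interferon γ and IL-6 list, 2 of 20 measured members were called higher and 5 lower (after centring 2 higher and 3 lower of 21, median from −0.42 to 0.07), the 2 higher genes being the IL-18 receptor chains. Stat4, which relays IL-12, was not called (664, 1317 and 1227, −0.88).

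Co-inhibitory and co-stimulatory receptors went both ways. Among them, 4 of 22 measured members were called higher and 8 lower. Ctla4, which competes with CD28 for B7 ligands, was alike on the NK1.1− KO and control arrays and low on the NK1.1+ KO array (63.2, 1344 and 1189, −4.23). Tnfrsf18, GITR (82.3, 257 and 457, −2.47), Tnfrsf9, 4-1BB (137, 622 and 595, −2.12) and Btla (947, 2244 and 2713, −1.52) were lower. Entpd1, the ectoenzyme CD39 (143, 33.8 and 6.602, at least 3.79, probe sets 0.56 to 3.79), and the collagen receptor Lair1 (237, 93.5 and 20.6, 3.52, probe sets 0.75 to 3.52) were higher, while Pdcd1, PD-1, was not called (35.97, 171 and 60.1, −0.74) and Lag3 was under the level. For regulatory T cell genes, 2 of 13 measured members were called higher and 9 lower; the list shares Ctla4 and Tnfrsf18 with the co-receptors. Foxp3 itself read 10.1, 33.3 and 97.1 (−3.23 or lower), and Ikzf2, Helios, was close across the arrays (2792, 2790 and 2391, 0.22, probe sets −1.15 to 0.22). TNF superfamily members had 1 of 18 measured members called higher and 6 lower (after centring 4 higher and 4 lower of 18, median from −0.39 to 0.06). Memory and activation markers had 8 of 21 measured members called higher and 5 lower, with Ahnak, a large scaffold protein, at 13180, 5304 and 1226 (3.43, probe sets 0.70 to 3.43) and Lgals3, galectin-3, at 1279, 1376 and 162 (2.98) against Anxa6, an annexin, at 310, 1208 and 1268 (−2.03, with −3.26 to 1.04 over its probe sets).

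Among the TGF-β receptors, SMADs and their modulators, 4 of 25 measured members were called higher and 8 lower, with a median of −0.86. The co-receptor Tgfbr3, betaglycan, was the lowest (71.05, 188 and 1034, −3.86). Feedback genes that the pathway induces were lower on both KO arrays, Smad7 with 33.5, 25.7 and 162 (−2.28) and Pmepa1 with 17.6, 17.2 and 114 (−2.69), with −2.28 to −0.27 and −2.69 to −0.14 over their probe sets. The signal carriers Smad2 (147, 261 and 282, −0.94), Smad3 (754, 910.4 and 398, 0.92) and Smad4 (2275, 1531 and 2455, −0.11, probe sets −1.81 to −0.11) and the type I receptor Tgfbr1 (371, 209.5 and 418, −0.17, probe sets −0.17 to 1.40) were not called. Activin and BMP receptors did not share a direction, with Acvr1b at 64.7, 62.2 and 313 (−2.27) and Bmpr1a at 67.8, 37.5 and 24.3 (1.48). For genes induced by TGF-β, 3 of 13 measured members were called higher and 7 lower, with a median of −1.02. Gpr15, a colon-homing receptor, was under the level on both KO arrays (5.24, 5.17 and 80.5, −2.96 or lower). Tgfbi was the largest exception (762, 15.4 and 7.19, at least 6.20); it also stands in the classical monocyte list.

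Genes of cell division were not higher on the NK1.1+ KO array, although they were on the NK1.1− KO array. For mitosis, 0 of 31 measured members were called higher and 13 lower (after centring 0 higher and 6 lower of 32), with a median of −0.74, whereas on the NK1.1− KO array 29 of 31 measured members were higher than control and 1 lower. The summed intensity of the list was 5941, 27350 and 13150. For DNA replication, 1 of 27 measured members were called higher and 9 lower (after centring 4 higher and 8 lower of 29), with a median of −0.70, and on the NK1.1− KO array 19 of 26 measured members were higher than control and 0 lower. Mki67, the proliferation antigen, read 852, 6945 and 1487, so the NK1.1+ KO array was lowest without reaching a call (−0.80). The mitotic kinases Cdk1 (30.8, 347 and 85.3, −1.47) and Aurkb (10.8, 312 and 44.1, −2.03, probe sets −2.03 to −0.81) and the ribonucleotide reductase chain Rrm1 (90.8, 1531 and 619.8, −2.77) were called lower. Lig1, which joins Okazaki fragments, read 50.4, 668 and 204 (−2.02) and Dut, which clears dUTP, 127, 1489 and 526 (−2.05). Other division genes were near control on their brightest probe sets. Ccna2 read 58.2, 437 and 49.3 (0.24), Cdc20 386, 1468 and 344 (0.17, probe sets −1.39 to 0.17) and Cenpf 74.6, 472 and 71.3 (0.06). Mcm4, a helicase subunit, was the one replication gene called higher (2945, 2694 and 1215, 1.28), with 1 of its probe sets called lower (−1.04 to 1.28). Among G1 cyclins, kinases and inhibitors, 1 of 20 measured members were called higher and 2 lower (after centring 2 higher and 1 lower of 20). Cdkn1b, the inhibitor p27, was highest on the NK1.1+ KO array without a call (2060, 578 and 1120, 0.88), Cdkn1a, p21, was called higher (24.9, 98.3 and 10.4, 1.26), and the G1 kinase Cdk4 lower (158, 822 and 970.3, −2.62).

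**Figure D4:**
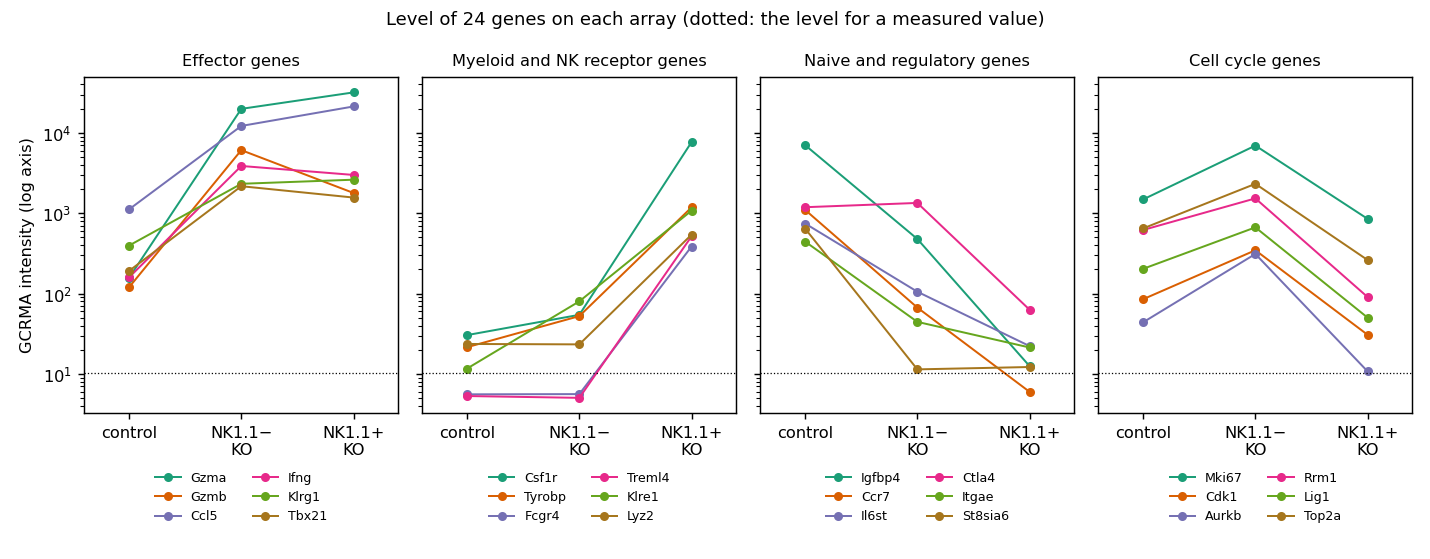
GCRMA intensity on a log axis (y) of 24 genes on the control, NK1.1− KO and NK1.1+ KO arrays (x), 1 array each, with a dotted line at the level of 10.3. Effector genes are high on both KO arrays, myeloid and NK receptor genes are highest on the NK1.1+ KO array, most naive and regulatory genes are lowest there, and the cell cycle genes peak on the NK1.1− KO array, as Mki67 does at 6945 against 852 and 1487.

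Promoters of division genes are shown because 2 elements mark this class, the NF-Y box CCAAT and the cell cycle homology region TTTGAA, through which division genes are repressed and activated together. Of 26 available promoters of measured mitosis genes, 22 held CCAAT (84.6%) and 21 TTTGAA (80.8%), both strands counted, against 39.0% and 12.2% of the 8444 promoters of all measured genes. The E2F sequences TTTCCCGC and TTTGGCGC were in 7.69% and 3.85% of the mitosis promoters. Both lie before the start site in at least 5 of the 10 lower mitosis genes with a promoter. Kif11, the spindle motor Eg5, and Cdk1 are shown. Both elements, on either strand, are in capitals. The Kif11 stretch is chr19:37376317-37376381 (plus strand) and the Cdk1 stretch is chr10:69352913-69353140 (minus strand). Kif11 read 22.3, 259 and 73.98 (−1.73), with −1.73 to 2.08 over its 3 probe sets.
Kif11: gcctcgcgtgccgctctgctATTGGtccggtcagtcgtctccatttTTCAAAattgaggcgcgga
Cdk1: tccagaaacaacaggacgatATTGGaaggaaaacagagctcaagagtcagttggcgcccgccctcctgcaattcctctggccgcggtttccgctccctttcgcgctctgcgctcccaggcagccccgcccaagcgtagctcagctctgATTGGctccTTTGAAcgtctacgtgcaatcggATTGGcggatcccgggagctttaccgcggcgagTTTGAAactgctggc

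Housekeeping programmes were lower in many members. For ribosome biogenesis and translation factors, 0 of 24 measured members were called higher and 16 lower, with a median of −1.49. Eef2, which moves the ribosome along the message, read 1109, 4688 and 9413 (−3.08), and the nucleolar proteins Fbl (204, 580.4 and 1313, −2.69) and Ncl (1066, 3160 and 4605, −2.11) were lower, Ncl with probe sets over −3.39 to 0.67. Myc, a driver of ribosome synthesis, read 13.9, 45.9 and 120.5 (−3.12). For ribosomal proteins, 0 of 20 measured members were called higher and 10 lower (after centring 0 higher and 5 lower of 20), with a median of −0.99. Rplp0 read 2927, 12370 and 18870 (−2.69) while Rps9 was near control on its brightest probe set (10940, 9123 and 8985, 0.28, probe sets −3.17 to 0.28), so the members differed among themselves. Proteasome and chaperone genes had 0 of 32 measured members called higher and 15 lower (after centring 1 higher and 12 lower of 32), with a median of −0.95. The immunoproteasome subunits Psmb8 (327, 1035 and 966, −1.56, probe sets −1.56 to −0.28), Psmb9 (214, 974 and 766, −1.84) and Psmb10 (177, 585 and 537, −1.60), which interferon γ induces, were all lower. The co-chaperone Bag5 was the lowest of the list (9.25, 198 and 354, −5.10 or lower).

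Genes of energy metabolism were also lower in part. For oxidative phosphorylation, 0 of 28 measured members were called higher and 12 lower (after centring 1 higher and 7 lower of 28), with a median of −0.66. Atp5b, the catalytic chain of ATP synthase, read 357, 2250 and 3403 (−3.25), and Sdha, of complex II, 1137, 3157 and 4424 (−1.96, probe sets −1.96 to −0.39), while Cox5a (4253, 4083 and 2656, 0.68) was not called. For glycolysis, 1 of 18 measured members were called higher and 7 lower (after centring 2 higher and 3 lower of 18). Pkm (192, 658 and 1157, −2.59) and Ldha (1342, 4269 and 3608, −1.43), the last enzymes of the pathway, were lower, and the glucose transporter Slc2a3 was the one gene higher (2527, 1870 and 726, 1.80), on both probe sets. Amino acid transporters and one-carbon enzymes had 0 of 20 measured members called higher and 8 lower. Gart, of purine synthesis, read 60.4, 339 and 1176 (−4.28, probe sets −4.28 to −0.59), and the serine synthesis enzyme Phgdh 199, 818 and 788 (−1.98, probe sets −2.51 to −0.48). Widely expressed reference genes were lower as well, with 0 of 11 measured members called higher and 7 lower (after centring 0 higher and 4 lower of 11) and a median of −1.09. Their levels included B2m at 11420, 12310 and 11830 (−0.05, probe sets −1.47 to −0.05) and Hprt at 1563, 2848 and 2277 (−0.54), neither called, against Tbp at 59.3, 91.8 and 126 (−1.09) and Tfrc at 148, 635 and 771 (−2.38, probe sets −2.38 to −0.96). On the same arrays the 3′ to 5′ ratio of Actb was 81.8, 12.3 and 6.02, and its part in these shifts was not tested.

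Interferon-stimulated genes went both ways. Of them, 6 of 29 measured members were called higher and 9 lower (after centring 9 higher and 6 lower of 28, median from −0.24 to 0.19), with a median of −0.24. The membrane restriction factors Ifitm3 (603, 54.96 and 16, 5.24), Ifitm2 (119.5, 36.9 and 8.41, at least 3.53) and Ifitm1 (41.9, 40.3 and 6.61, at least 2.02) were higher, and Ifitm3 also stands in the classical monocyte list. The type I interferon feedback protease Usp18 (21.7, 67.5 and 117, −2.44), the exonuclease Isg20 (30.8, 156 and 145, −2.23), tetherin Bst2 (5.55, 32.3 and 46.5, −2.17 or lower) and Irf7 (29.1, 50.3 and 96.5, −1.73) were lower. Of the guanylate-binding proteins Gbp3 was higher (1676, 2982 and 753, 1.15) and Gbp2 was not called (1323, 1291 and 871, 0.60). The interferon response core TTTCNNTTT is shown because it is the element through which interferon acts on this class. It was in 16 of 22 available promoters of measured members (72.7%) and in 8.18% of all 8444, both strands counted. Before the start site it was found in 2 of the 4 higher members with a promoter and in 6 of the 7 lower ones. A promoter of each direction is shown, from the same RefSeq build, with the core in capitals, that of Ifitm2 at chr7:140955978-140956026 (minus strand) and that of Isg20 at chr7:78913342-78913390 (plus strand).
Ifitm2: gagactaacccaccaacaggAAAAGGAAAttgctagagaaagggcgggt
Isg20: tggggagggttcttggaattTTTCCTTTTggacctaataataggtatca

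Brakes and early genes of receptor signalling went both ways. Among MAP kinase brakes, 3 of 17 measured members were called higher and 5 lower (after centring 3 higher and 5 lower of 17, median from −0.25 to 0.20). Spry2 (1568, 150.1 and 274, 2.52) and Dusp16 (353, 42.7 and 59.6, 2.57), a phosphatase for JNK and p38, were called higher against control, and both read below control on the NK1.1− KO array. Spry1 (8.15, 30.5 and 47.01, −2.19 or lower), Dusp4 (10.5, 42.1 and 41.5, −1.99) and Dusp10 (19.3, 38.95 and 83.5, −2.12) of the same families were lower. Of immediate early factors, 4 of 25 measured members were called higher and 5 lower (after centring 6 higher and 4 lower of 26). Fosl2 read 306, 124 and 66.9 (2.19, probe sets 0.11 to 2.19) and Nr4a2 326, 257 and 132 (1.31, probe sets 0.28 to 1.31), while Nr4a3 (98.2, 174 and 358, −1.87) and Ier5 (190.1, 547 and 802, −2.08, probe sets −2.08 to −0.15) were lower, and Fos (326, 149.5 and 253, 0.37) and Egr1 (701, 652 and 1087, −0.63) were not called. For regulators of G protein signals and G protein-coupled receptors, 4 of 20 measured members were called higher and 5 lower (after centring 6 higher and 3 lower of 21). Rgs2 was higher (2396, 272 and 517, 2.21, probe sets 0.98 to 2.75) and Rgs10 lower (50.96, 106 and 694, −3.77). Fpr2, a formyl peptide receptor of phagocytes, read 830.5, 14.5 and 9.86 (at least 6.33), and Gpr183, which positions lymphocytes by oxysterols, 86.5, 377 and 784 (−3.18).

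The remaining lists held single large differences. Of apoptosis and survival genes, 5 of 27 measured members were called higher and 2 lower (after centring 8 higher and 1 lower of 26). Casp1 (434, 623 and 37.6, 3.53) and Casp4 (136, 259.6 and 22.5, 2.59), the inflammatory caspases, and Pmaip1, the BH3-only protein Noxa (358, 337 and 34.1, 3.39), were higher on both KO arrays, and Casp8 was lower (180.1, 264 and 658, −1.87). Among actin regulators, 5 of 37 measured members were called higher and 8 lower (after centring 6 higher and 4 lower of 37, median from −0.29 to 0.16), with Dock5 at 636, 286 and 12.5 (5.67, probe sets 0.89 to 5.67) and Plek at 1862, 2489 and 145 (3.68) against Flna at 461, 1366 and 1775 (−1.95). For chromatin genes, 8 of 30 measured members were called higher and 6 lower. The histone acetyltransferase Ep300 (823, 484 and 351, 1.23) and the methylcytosine oxidase Tet2 (479, 243 and 218, 1.13, probe sets 0.71 to 1.13) were higher, and the deacetylase Hdac7 was lower (17.5, 112 and 202, −3.53, probe sets −3.53 to −0.77). Splicing and RNA-binding genes had 0 of 26 measured members called higher and 9 lower (after centring 3 higher and 5 lower of 26, median from −0.44 to 0.01). GIMAP and immunity-related GTPases had 2 of 11 measured members called higher and 2 lower (after centring 2 higher and 1 lower of 11, median from −0.32 to 0.12), with Gimap7 at 1471, 2559 and 725 (1.02) and Gimap1 at 217, 498 and 720.5 (−1.73).

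Lipid and lysosome genes contained further members that are typical of phagocytes. Of lipid and eicosanoid genes, 7 of 17 measured members were called higher and 5 lower (after centring 8 higher and 2 lower of 19). Alox5ap, which presents arachidonic acid for leukotriene synthesis, read 1014, 37.1 and 19.7 (5.69), and lipoprotein lipase Lpl 169, 6.08 and 6.41 (at least 4.03). Smpdl3b, a lipid-raft phosphodiesterase, was high on both KO arrays (606, 364 and 5.64, at least 5.87), and the sterol enzyme Sqle was lower (22.1, 122 and 174, −2.98). Of lysosome and endosome proteins, 3 of 24 measured members were called higher and 5 lower (after centring 6 higher and 4 lower of 24, median from −0.31 to 0.14), with Grn, progranulin, at 5720, 2361 and 1434 (1.996, probe sets 0.16 to 1.996) and the protease Lgmn at 9.04, 12.2 and 64.7 (−2.65 or lower). Complement and coagulation factors had 2 of 10 measured members called higher and 1 lower, the largest being C1qb (149, 9.84 and 10.2, at least 3.85). Of 2 measured sex-linked genes 0 were called, with a median of −0.13 that centring turned to 0.18.

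Some of the largest differences lay outside the lists. Gab2, a scaffold adaptor of growth factor and Fc receptor signals, read 698, 132 and 6.53 (at least 6.08), Tnfaip2 551, 10.1 and 9.36 (at least 5.74) and the potassium channel gene Kcnj8 434, 73.8 and 8.797 (at least 5.39). On the lower side, Ift80, of intraflagellar transport, read 17.8, 102 and 819 (−5.53), Ramp1, the receptor activity modifier of calcitonin-type receptors, 11.9, 28.97 and 229 (−4.26, probe sets −4.26 to −0.81), the adenylate cyclase Adcy6 7.75, 49.9 and 381 (−5.20 or lower) and Lrig1, a restraint on growth factor receptors, 7.03, 25.1 and 167 (−4.02 or lower). Wdr74 (8.95, 128 and 236, −4.52 or lower) and Nop14 (9.19, 62.5 and 147, −3.83 or lower), of ribosome assembly, and the translation initiation factor subunit Eif2b1 (17.2, 210.2 and 259, −3.91) were in the same set.

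The promoters of all called genes were set against those of all measured genes. The SMAD palindrome GTCTAGAC was in 0.126% of the 793 available promoters of higher genes, 0.253% of the 1973 of lower genes and 0.249% of all 8444. GAGGAAGT was in 4.04%, 3.70% and 3.34%, GGTGTGA in 2.77%, 2.84% and 3.26%, the RUNX sequence TGTGGTT in 4.16%, 3.75% and 3.90%, the KLF sequence CCACACCC in 4.41%, 3.75% and 3.72%, and the AP-1 sequence TGACTCA in 4.92%, 2.84% and 3.36%. TTTCNNTTT was in 10.7%, 8.31% and 8.18%, CCAAT in 35.9%, 39.0% and 39.0%, TTTGAA in 12.6%, 12.1% and 12.2%, and the E2F sequences TTTCCCGC in 1.01%, 2.33% and 2.14% and TTTGGCGC in 0.883%, 1.22% and 1.14%. Among the 49 available promoters of the 73 genes higher by 16-fold or more, 12 held TTTCNNTTT (24.5%), 12 TTTGAA (24.5%) and 6 TGTGGTT (12.2%), against 8.18%, 12.2% and 3.90% of all. In the same set GAGGAAGT was in 8.16%, GGTGTGA in 6.12%, CCACACCC in 4.08%, CCAAT in 30.6% and TGACTCA in 2.04%, and TTTCCCGC, TTTGGCGC and GTCTAGAC were in 0. Among the 103 available promoters of the 123 genes lower by 8-fold or more, CCAAT was in 37.9%, TTTGAA in 10.7%, TTTCNNTTT in 6.80%, TGTGGTT in 4.85%, GAGGAAGT and TTTCCCGC each in 2.91%, GGTGTGA in 1.94% and CCACACCC in 0.971%, and the other 3 motifs were in 0. These shares describe letters in a fixed window and were not tested.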

How the data were processed

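RNA of sorted CD8+ T cells was hybridised to 3 Affymetrix mouse expression arrays, 1 per group, grouped by their titles. The authors deposited intensity values made with GCRMA 1.1.3, per the submitters' processing notes. These are linear, with background and scaling already set, and log2 was taken here. Read or cell depth does not apply to arrays, and their number limits the precision. Of 45037 probe sets that are no Affymetrix controls, 34945 carried 1 gene symbol and stood for 18193 genes. The 932 with several symbols and 9160 with none were left out. Each gene was represented by whichever of its probe sets was brightest on average across the arrays. The level of 10.3 is the 95th percentile, on all arrays together, among 144 probe sets for genes not expected in T cells, namely sensory receptors (olfactory, taste, vomeronasal), keratin-associated proteins and crystallins. Calls needed 2-fold. The calling step was tested on simulated data with known differences, which says nothing of the error between replicates.

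The 60 gene lists and the rule for named genes were chosen with earlier results of these data known. The rule picked the sort markers, Tgfbr2 and members of the lists. It also picked the 15 genes with the largest difference each way measured on both arrays and the 10 measured on 1. Genes with the 10 widest probe set ranges were picked as well. Not every gene picked is named in the text. The lists matched 1119 distinct genes. Promoters run from 250 bases before to 50 after the start in RefSeq, GRCm38.p6. Alternatives were other levels, scalings, probe set rules and folds, and an offset of 32. Python 3.11.15, numpy 2.4.6, pandas 2.3.3 and matplotlib 3.10.9 were used.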

Additional observations from a re-analysis of the deposited data

Results flagged for a closer look

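Genes named above that were called one way on the NK1.1+ KO array and the other way on the NK1.1− KO array, both against the same control array, are given here. Most belong to cell division. Aurkb differed from control by −2.03 on the NK1.1+ KO array and by 2.82 on the NK1.1− KO array, and Cdk1 by −1.47 and 2.02. Kif11 differed by −1.73 and 1.81. Among replication genes Rrm1 differed by −2.77 and 1.30, Lig1 by −2.02 and 1.71, and Dut by −2.05 and 1.50. The partner factors Irf4 and Batf were in the same class, Irf4 with −1.28 and 1.07 and Batf with −1.42 and 1.02. The immunoglobulin heavy chain Ighm went the other way, with 2.50 and −1.30. With 1 array a group the difference between the subsets was not tested, and both comparisons share the control array.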

How the results depend on the processing

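The 1011 higher and 2377 lower calls became 559 and 1475 with a higher level, the 75th percentile of every value. They became 1709 and 1459 with each array centred on its median over genes measured on every array. A fold of 4 gave 367 and 645, and 32 added to each value gave 575 and 1460. The mean over probe sets gave 536 higher genes, with the lower count within 1.5 times. Quantile normalization, no level, probe sets without a suffix, and a level without the Crybg genes, which was chosen after seeing the data, kept both counts within 1.5 times. Of the 257 measured genes named, 238 kept direction and call after centring, 246 after quantile normalization and 231 with the offset. With the higher level it was 220 of 239, with the mean 217 of 254 and without suffixed probe sets 209 of 218. Direction turned in 8 cases. Without suffixed probe sets Bzw2 was −1.35, Ccr9 0.67, Cdc20 −1.39, Mcm4 −1.04, Vav1 0.78 and Rps9 −3.17, and with the mean Rps9 was −1.62 and Rnf213 0.82. The other probe set or sets of these genes then carry the value. Of 120 list counts, 85 stayed within 1.5 times after centring and 92 with the higher level. No paired analysis was possible because each group has 1 array, and for the same reason none could be left out.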
